A study of Homo sapiens with 6 samples.

Results

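The 73 genes described here encode proteins of the mitochondrial ribosome, taken from 18404 genes represented on the array. A gene was a member if the array annotation gave its probe set (the group of probes that together report 1 transcript) a single symbol made of MRPL or MRPS, a number and at most a letter from A to C. These letters stand for mitochondrial ribosomal protein of the large or the small subunit, and 48 members carry MRPL and 25 carry MRPS. Pseudogenes were dropped, and each gene was represented by its brightest probe set, which left 73 of the 74 matching probe sets. The members were compared between 2 groups of cultures of MDA-MB-231, an established line from a triple-negative breast cancer with mesenchymal features. The first group was kept in DMEM with 10 mM fructose for 25 days and carries the label non-glycolytic, and the second was kept in DMEM with 25 mM glucose for the same 25 days and carries the label glycolytic. Each group had 3 arrays, each from a batch of cells adapted on its own, harvested near 70% confluency and some 24 hours after a medium change. The sugar and its concentration differed together and cannot be told apart, and all cultures came from 1 line.

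Mitochondria keep their own ribosomes, which translate the few messages encoded in mitochondrial DNA, all of them for subunits of the respiratory chain and ATP synthase in human cells. The ribosomal RNAs are mitochondrial, whereas every ribosomal protein is encoded in the nucleus, made in the cytosol and imported. The small subunit reads the message and the large subunit joins amino acids. Some proteins descend from the bacterial ribosome and others were added in mitochondria. The nuclear factors NRF1, GABP (of the ETS family) and YY1 are known to bind promoters of many such genes.

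No member passed the test between fructose and glucose, and the differences were small. By limma with Benjamini-Hochberg adjustment over 28230 probe sets, 0 of 73 members had an adjusted p under 0.05, against 1 probe set in all (0.00354%), that of TXNIP. At an unadjusted p under 0.05, 5 members were higher in fructose and 3 were lower. These counts are 6.85% and 4.11% of the members, against 7.65% and 5.43% of all tested probe sets and 9.71% and 7.72% of those above the median level, where all 73 members lie. In this fit the share of members was below the background in both directions. With an intensity trend and robust variances, 13.7% of members were higher and 16.4% lower, against 12.3% and 11.1% of probe sets above the median level. The median log2 difference (fructose minus glucose) over the members was -0.0003, with 36 (49.3%) higher and 37 lower. It was 0.02 over all tested probe sets, of which 56.2% were higher, as were 53.1% of those above the median level. After quantile normalization again, 50.7% of members and 50.6% of all tested probe sets were higher. In the main fit the smallest adjusted p of a member was 0.235, and 41 of 73 members differed by less than 0.1 on the log2 scale. The largest size of a difference was 0.30.

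The labels of the cells were checked first. The 6 markers listed as high in this line (VIM, CD44, AXL, MSN, CAV1 and LGALS1) had mean intensities from 1590 to 5580, and of the 6 listed as low, ESR1, PGR, CDH1 and FOXA1 lay below the median probe set, while ERBB2 and GATA3 lay above it. All 3 measured leukocyte markers and all 4 fibroblast markers lay below that median, as did VWF and CDH5 of the 3 endothelial markers, whereas PECAM1 lay at percentile 53.5. TXNIP, a gene induced by glucose, read 107, 122 and 136 in fructose, far below its readings of 1639, 1781 and 1656 in glucose (log2 difference -3.80, limma adjusted p = 4.7e-05). Over all arrays the intensities spanned 2.15 to 9287, and the array medians spanned 33.1 to 34.8. Arrays report shares of the labelled RNA after normalization, so fewer cells of a state and less RNA per cell cannot be told apart.

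Fructose replicate 3 stood apart from the other fructose arrays in these genes. It was the lowest of the 3 for 58 of 73 members (79.5%), compared with 45.4% of genes above the median probe set. The same array was lowest for 74.2% of 66 cytosolic ribosomal protein genes and for 77.3% of 75 respiratory chain and ATP synthase genes, so the low level was shared with these related groups. The median member on fructose replicate 3 lay -0.12 (log2) from the mean of the other fructose arrays, against -0.04 for genes above the median. Among the glucose arrays replicate 3 was the highest for 68.5% of members, compared with 37.6% of genes above the median. Without fructose replicate 3, 52 members (71.2%) were higher and 21 lower, against 54.9% higher among probe sets above the median. At an unadjusted p under 0.05, 7 members (9.59%) were then higher and 0 lower, against 9.13% and 5.32% of those probe sets in the same limma fit. Without glucose replicate 3, 44 members (60.3%) were higher and 29 lower, against 52.8% higher among those probe sets. Again 7 members were higher and 0 lower at that p, against 7.78% and 5.28% of the probe sets. Fructose replicate 2 was the highest of its group for 65.8% of members, compared with 41.1% of genes above the median. Without it, 30 members (41.1%) were higher and 43 lower, against 52.8% higher among those probe sets. In that limma fit 1 member (1.37%) was higher and 5 (6.85%) lower at an unadjusted p under 0.05, against 9.17% and 8.02%. No other array shifted the split of directions beyond 33 higher and 40 lower.

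The promoters of 4 members are shown because these genes had the smallest unadjusted p among the members higher and lower in fructose in each subunit. Each window runs from 250 bases before to 30 bases after the start of the gene in RefSeq, on GRCh38.p14 and the strand of the gene. Capitals mark matches on either strand to a motif of NRF1, given here by name and seen as the longest capital runs in MRPL45 and MRPS9, to CCGGAAG (ETS family), AAGATGGCG (YY1) or GGGCGG (Sp1). MRPL45 lies at chr17:38296918-38297197 on the plus strand, MRPL44 at chr2:223957213-223957492 on the plus strand, MRPS18A at chr6:43687762-43688041 on the minus strand and MRPS9 at chr2:105037819-105038098 on the plus strand.
MRPL45 promoter: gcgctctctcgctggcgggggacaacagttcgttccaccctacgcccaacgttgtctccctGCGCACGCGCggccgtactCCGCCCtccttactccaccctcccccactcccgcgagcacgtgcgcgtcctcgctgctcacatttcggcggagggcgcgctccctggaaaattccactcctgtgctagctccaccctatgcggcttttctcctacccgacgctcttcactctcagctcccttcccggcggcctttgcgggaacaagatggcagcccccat
MRPL44 promoter: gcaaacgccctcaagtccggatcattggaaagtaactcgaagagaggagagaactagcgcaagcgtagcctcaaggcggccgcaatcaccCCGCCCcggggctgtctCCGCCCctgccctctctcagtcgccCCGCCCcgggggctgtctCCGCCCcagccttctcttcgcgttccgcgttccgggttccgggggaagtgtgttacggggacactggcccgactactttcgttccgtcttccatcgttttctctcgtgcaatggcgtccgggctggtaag
MRPS18A promoter: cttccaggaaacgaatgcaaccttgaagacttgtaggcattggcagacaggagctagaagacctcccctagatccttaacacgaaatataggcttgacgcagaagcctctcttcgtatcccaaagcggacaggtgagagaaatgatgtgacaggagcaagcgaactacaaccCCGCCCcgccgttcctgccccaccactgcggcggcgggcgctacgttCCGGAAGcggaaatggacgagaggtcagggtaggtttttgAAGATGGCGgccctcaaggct
MRPS9 promoter: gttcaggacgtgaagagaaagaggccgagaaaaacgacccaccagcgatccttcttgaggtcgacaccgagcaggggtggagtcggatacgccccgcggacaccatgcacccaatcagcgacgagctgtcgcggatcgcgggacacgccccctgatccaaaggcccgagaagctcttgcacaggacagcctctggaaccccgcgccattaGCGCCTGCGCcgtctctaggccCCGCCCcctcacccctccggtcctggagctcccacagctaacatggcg
The windows of MRPL45, higher in fructose, and of MRPS9, lower in fructose, each hold 1 NRF1 match and 1 Sp1 match. That of MRPS18A holds 1 ETS match, 1 YY1 match just after the start and 1 Sp1 match, and that of MRPL44 holds 4 Sp1 matches and none of the other motifs. A match is a description of letters and not a binding site.

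Motifs were counted over the 66 members found in the RefSeq promoter table, in windows of 300 bases, 50 of them after the start, and a gene with several windows counted if any held the motif. The ETS motif was present in 43.9% of members and in 16.5% of 15843 protein-coding genes. The YY1 motif was present in 18.2% of members and in 3.21% of protein-coding genes, and the NRF1 motif in 13.6% and 9.67%. The Sp1 motif was no more frequent, with 59.1% of members and 64.3% of protein-coding genes. Split by motif, the differences between sugars were as follows. The 29 members with an ETS match had a median log2 difference of -0.0003 and the 37 without it 0.0038, the 12 with a YY1 match had -0.04 and the 54 without it 0.0024, and the 9 with an NRF1 match had 0.09 and the 57 without it -0.0043. The 39 with an Sp1 match had 0.02 and the 27 without it -0.04. Large and small subunit genes held the ETS motif at 41.5% and 48.0%, the YY1 motif at 19.5% and 16.0%, the NRF1 motif at 17.1% and 8.0%, and the Sp1 motif at 53.7% and 68.0%.

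**Figure D1:**
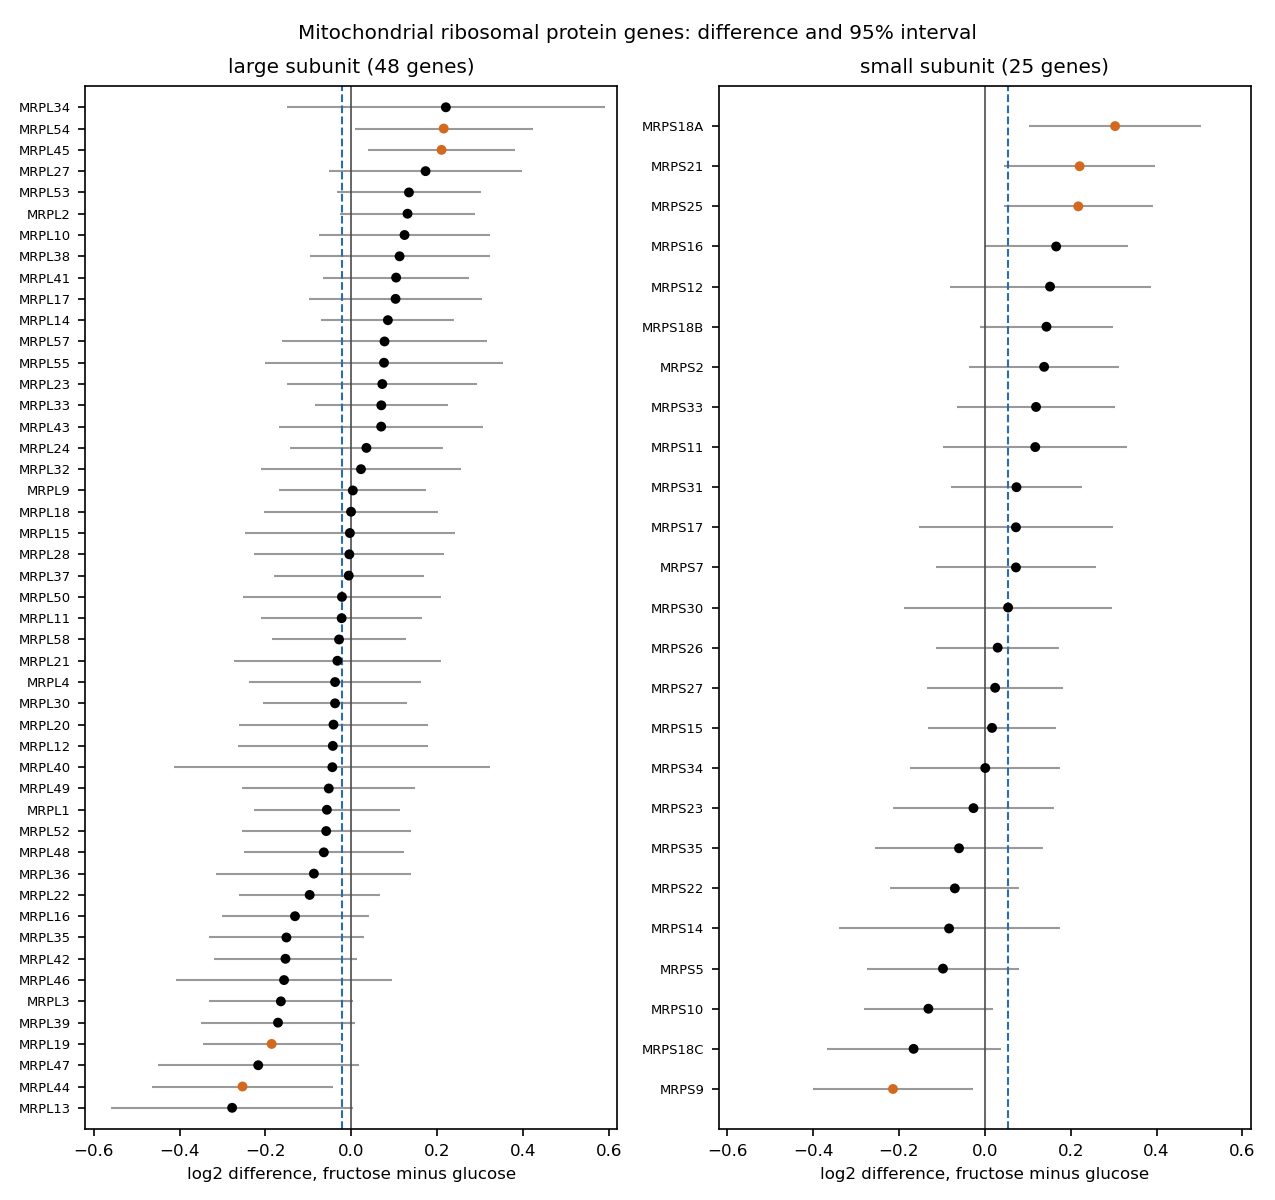
Log2 difference between fructose and glucose for each of the 48 large (left) and 25 small (right) subunit genes, with the 95% interval of the limma fit as a bar, an orange point where the unadjusted p is under 0.05 and a dashed line at the median of the subunit. The points run from -0.28 to 0.30, and the interval lies clear of 0 for 8 genes.

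The medians of the subunits had opposite signs, each smaller than its SD between arrays of a sugar (0.08 for the large and 0.06 for the small subunit). In the large subunit 19 genes were higher in fructose and 29 lower, with a median log2 difference of -0.02. In the small subunit 17 genes were higher and 8 lower, with a median of 0.05. With each array centred on its median, 17 large and 14 small subunit genes were higher, beside 45.5% of probe sets above the median level. After quantile normalization again, 21 large and 16 small subunit genes were higher, beside 50% of those probe sets. In the main fit the median over genes above the median probe set was 0.01, with 54.2% higher. Large minus small, the medians differed by -0.08, and the SD of that gap between single arrays of a sugar was 0.05. That SD rests on 3 arrays a group and is not the error of the -0.08. With MRPS18A and MRPS30 counted in the large subunit, the medians differed by -0.04. By array, the median deviation from the mean of the glucose arrays was 0.02, 0.06 and -0.13 for the large subunit on fructose replicates 1, 2 and 3, and -0.01, -0.03 and 0.05 on glucose replicates 1, 2 and 3. For the small subunit it was 0.06, 0.08 and 0.01 in fructose, beside -0.02, -0.06 and 0.08 in glucose. Both subunits thus overlapped between the sugars. The gap between them, large minus small, was -0.04, -0.01 and -0.14 in fructose, beside 0.01, 0.03 and -0.03 in glucose, and fructose replicate 2 lay inside the range of glucose. Without fructose replicate 3 the gap was -0.03, and the large subunit median was 0.04. Without glucose replicate 3 they were -0.03 and 0.01. No p is given for these medians, since the members were chosen with results of these arrays known.

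**Figure D2:**
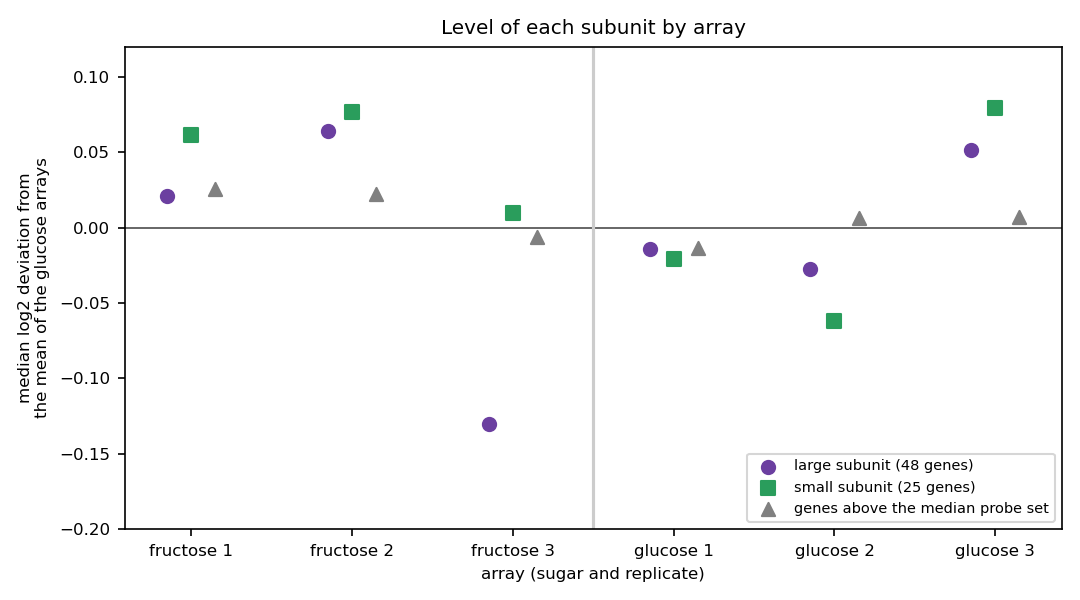
Median log2 deviation of each array from the mean of the glucose arrays (vertical axis), by array (horizontal axis, fructose left of glucose), for the large subunit (circles), the small subunit (squares) and genes above the median probe set (triangles). On fructose replicate 3 the large subunit lies at -0.13 and the small subunit at 0.01, and on the other 5 arrays both lie between -0.06 and 0.08.

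**Figure D3:**
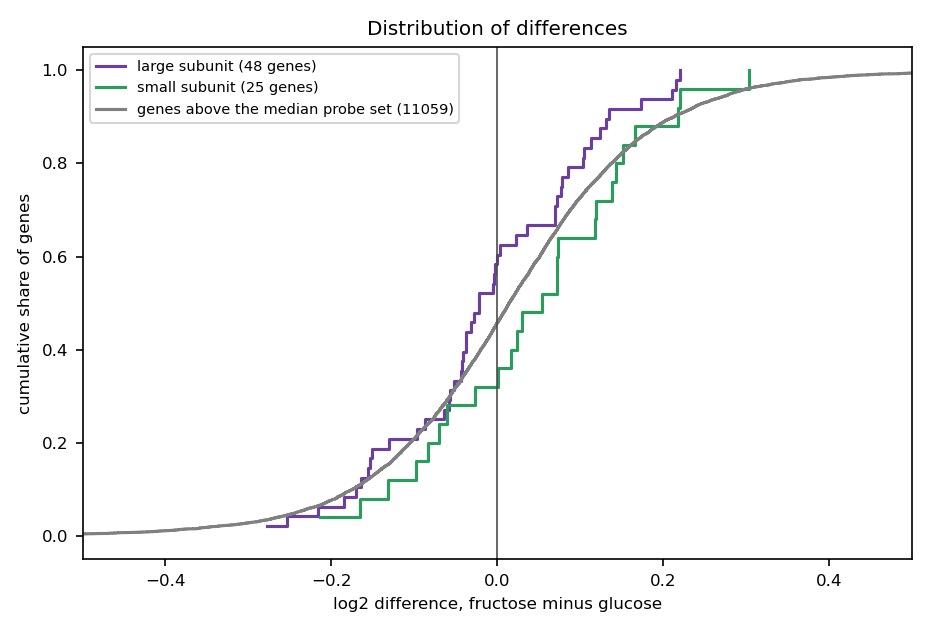
Cumulative share of genes (vertical axis) against the log2 difference, fructose minus glucose (horizontal axis, drawn from -0.5 to 0.5), for the large subunit, the small subunit and 11059 genes above the median probe set. The curve of the small subunit lies right of that of the large subunit over most of its length, with medians of 0.05 and -0.02.

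MRPS18A had the smallest p of the members and was the only member with an unadjusted p under 0.01. Its protein is named for the small subunit, but structures of the human ribosome place it in the large subunit, under the name mL66, and the same holds for MRPS30, known there as mL65. MRPS18A read 579, 567 and 503 in fructose, against 443, 420 and 472 in glucose, with no overlap. The log2 difference was 0.30 (SE 0.09, 95% interval 0.10 to 0.50, 1.23-fold, limma adjusted p = 0.235). In fits that left out 1 array it lay between 0.26 and 0.37, and the unadjusted limma p between 0.0045 and 0.0342. MRPS30 had 396, 329 and 345 in fructose against 311, 373 and 347 in glucose, so its arrays overlapped, with a difference of 0.05 (95% interval -0.19 to 0.30). With these genes counted in the large subunit, the medians were -0.01 for the large and 0.03 for the small subunit, and their gap was -0.04, against -0.08 by symbol.

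The MRPS18 family has 3 members, all related to the bacterial protein S18, and they did not share a direction. MRPS18B had 1350, 1306 and 1415 in fructose against 1205, 1251 and 1228 in glucose, without overlap, and differed by 0.14 (95% interval -0.01 to 0.30, adjusted p = 0.414). MRPS18C had 290, 294 and 264 in fructose against 340, 291 and 321 in glucose, overlapping through glucose replicate 2, and differed by -0.17 (95% interval -0.37 to 0.04, adjusted p = 0.464). In structures MRPS18B and MRPS18C both belong to the small subunit. Intensities of different probe sets depend on their probes and are not set against each other here.

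In the small subunit MRPS21, counterpart of the bacterial protein S21, had 357, 394 and 365 in fructose and 310, 311 and 337 in glucose. It was higher on each fructose array, by 0.22 (SE 0.07, 1.17-fold, adjusted p = 0.298). MRPS25, a protein without a bacterial counterpart, had 134, 139 and 129 in fructose and 114, 109 and 122 in glucose. It also did not overlap, with a difference of 0.22 (SE 0.07, adjusted p = 0.298). MRPS16, whose loss in patients causes a severe defect of mitochondrial translation, had 695, 690 and 663 in fructose and 598, 583 and 646 in glucose. Its difference was 0.17 (95% interval -0.0005 to 0.33, adjusted p = 0.384). MRPS12, counterpart of the bacterial S12 that controls decoding accuracy, had 176, 184 and 159 in fructose and 146, 148 and 175 in glucose. Glucose replicate 3 overlapped the fructose arrays here, and the difference of 0.15 had an interval from -0.08 to 0.39.

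MRPS9, counterpart of the bacterial S9, was the small subunit gene furthest on the lower side. It had 93.5, 99.0 and 89.1 in fructose and 107, 103 and 117 in glucose, without overlap. The difference was -0.21 (SE 0.08, 95% interval -0.40 to -0.03, adjusted p = 0.330). MRPS10 had 994, 1022 and 1050 in fructose and 1096, 1141 and 1121 in glucose, again without overlap, with -0.13 (adjusted p = 0.434). The other low members, MRPS5 with -0.10 and MRPS14 with -0.08, overlapped between the sugars. MRPS22, in which mutations cause cardiomyopathy and tubulopathy, had 256, 260 and 247 in fructose and 272, 260 and 268 in glucose, a difference of -0.07 (95% interval -0.22 to 0.08), with the middle readings parted only below the whole number. The steadiest genes were MRPS26, MRPS15 and MRPS22, which had the smallest residual spread of the members (log2 SD 0.017, 0.032 and 0.035). MRPS26 read 232, 237 and 231 in fructose against 230, 226 and 230 in glucose, and MRPS15 read 837, 810 and 833 against 798, 839 and 814. Their differences were 0.03 and 0.02.

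In the large subunit the genes on the lower side were led by MRPL13, counterpart of the bacterial L13. It had 171, 168 and 128 in fructose and 180, 186 and 195 in glucose, without overlap but with fructose replicate 3 far below the rest. Its difference was -0.28 (SE 0.12, 95% interval -0.56 to 0.01, adjusted p = 0.388). MRPL44, which carries a ribonuclease III-like fold and is mutated in a form of cardiomyopathy, had 149, 133 and 126 in fructose and 167, 151 and 168 in glucose. Its arrays did not overlap, though fructose replicate 1 lay close to glucose replicate 2, and the difference was -0.25 (SE 0.09, 95% interval -0.46 to -0.04, adjusted p = 0.310). MRPL19, counterpart of the bacterial L19, had 134, 122 and 125 in fructose and 142, 143 and 147 in glucose. The gap between the groups was small but free of overlap, with -0.19 (SE 0.07, 95% interval -0.35 to -0.02, adjusted p = 0.326).

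MRPL47, named in structures as the counterpart of the bacterial L29, had 800, 814 and 657 in fructose and 842, 869 and 918 in glucose. As in MRPL13, fructose replicate 3 was much the lowest, and the difference was -0.22 (SE 0.10, adjusted p = 0.412). MRPL39, which has no bacterial counterpart, had 428, 451 and 411 in fructose and 481, 458 and 513 in glucose, a difference of -0.17 (adjusted p = 0.398). MRPL3, counterpart of the bacterial L3 near the catalytic centre, had 360, 375 and 371 in fructose and 389, 435 and 415 in glucose. Its arrays did not overlap, and it differed by -0.16 (95% interval -0.33 to 0.0034, adjusted p = 0.388). These genes together with MRPL22, MRPL35 and MRPL42 made up the 9 large subunit genes whose fructose arrays all lay below the glucose arrays.

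On the higher side of the large subunit, MRPL45 lies at the exit of the peptide tunnel, where it anchors the ribosome to the inner membrane. It had 604, 619 and 562 in fructose and 490, 527 and 525 in glucose. Each fructose array was above each glucose array, with a difference of 0.21 (SE 0.07, 95% interval 0.04 to 0.38, adjusted p = 0.302). MRPL54, a protein particular to mitochondria, had 220, 236 and 201 in fructose and 190, 176 and 200 in glucose. The groups nearly touched, with a difference of 0.22 (SE 0.09, 95% interval 0.01 to 0.42, adjusted p = 0.368). MRPL34, counterpart of the bacterial L34, had the widest spread, with 159, 143 and 105 in fructose and 105, 115 and 124 in glucose, and its difference of 0.22 had an interval from -0.15 to 0.59.

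MRPL27, whose bacterial counterpart L27 reaches into the catalytic centre, had 384, 453 and 394 in fructose and 348, 345 and 397 in glucose, a difference of 0.17 (adjusted p = 0.492). MRPL53 had 477, 466 and 432 in fructose and 409, 410 and 432 in glucose, a difference of 0.13 (adjusted p = 0.472). MRPL40, next to MRPL34 in spread, had 185, 192 and 127 in fructose and 175, 167 and 168 in glucose, where fructose replicate 3 lay below the range of the other 5 arrays. MRPL14 (0.09), MRPL37 (-0.01), MRPL36 (-0.09), MRPL49 (-0.05), MRPL32 (0.02) and MRPL38 (0.11) had intervals that include 0. A further probe set of MRPL36, dimmer than the one used, had the opposite sign (0.16, 95% interval -0.23 to 0.55).

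The stalk of the large subunit, which recruits translation factors, gave differences from -0.04 to 0.12, with intervals that include 0. MRPL12, which also binds the mitochondrial RNA polymerase, had 230, 239 and 196 in fructose and 231, 216 and 235 in glucose, a difference of -0.04 (95% interval -0.26 to 0.18). MRPL10 differed by 0.12 (95% interval -0.08 to 0.32) and MRPL11 by -0.02 (95% interval -0.21 to 0.17). MRPL58, a peptidyl-tRNA hydrolase that rescues stalled ribosomes, differed by -0.03 (95% interval -0.19 to 0.13). The arrays of all 4 genes overlapped between the sugars. Their intervals do not exclude differences of the size seen in many other members, but the 0.30 of MRPS18A lies only inside that of MRPL10.

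**Figure D4:**
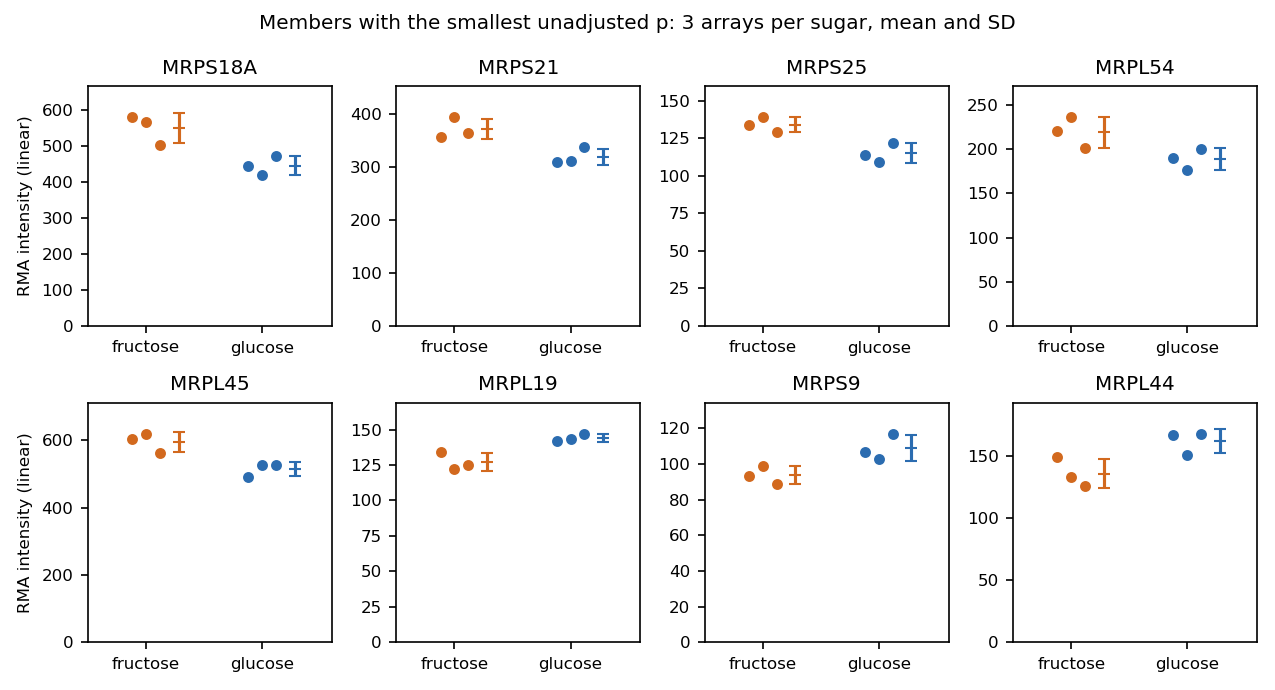
RMA intensity on a linear axis from 0 for the 8 members with an unadjusted p under 0.05, with 3 fructose arrays (orange, left) and 3 glucose arrays (blue, right) in each panel, in the order of replicates 1 to 3, and the mean and SD beside them. MRPS18A has the largest log2 difference of the 8, 0.30, with means of 550 ± 41.2 in fructose and 445 ± 26.3 in glucose (SD, n = 3 each).

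Arrays of the sugars did not overlap in 25 members, 13 of them higher and 12 lower in fructose. The shares, 17.8% and 16.4%, stand beside 11.4% and 8.81% of all tested probe sets and 15.1% and 13.6% of those above the median level, so they are near the background of well measured probe sets. By subunit, 5 higher (10.4% of its genes) and 9 lower (18.8%) came from the large subunit. The small subunit gave 8 higher (32%) and 3 lower (12%), with MRPS18A among the higher. These shares stand beside the same 15.1% and 13.6% above the median level. They rest on few genes, all measured on the same 6 arrays, so no difference between the subunits is read from them. In fits that left out each array in turn, 45 of 73 members kept the sign of their difference in all 6, and the lowest adjusted p was 0.296. The count of kept signs was not taken over other probe sets, so it has no background here. The 43 members with a bacterial counterpart, sorted by the number in the symbol so that MRPL47 falls outside, had a median of -0.0003, and the other 30 had -0.0024. The differences varied among members with an SD of 0.13, against 0.17 over genes above the median probe set and 0.08 over cytosolic ribosomal protein genes.

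Members often lie head to head with another gene, so that both starts share a short stretch of DNA. Of the 66 members in the promoter table, 19 (28.8%) have a protein-coding neighbour on the opposite strand that starts within 1000 bases, compared with 12.3% of protein-coding genes in that table. MRPL46 and MRPS11 form such a pair, 320 bases apart, with 1 gene for each subunit. MRPL46 had 203, 218 and 170 in fructose and 204, 226 and 226 in glucose, and MRPS11 had 378, 403 and 350 in fructose and 347, 319 and 377 in glucose. Their differences were -0.16 and 0.12, both with overlapping arrays. MRPS12 lies 181 bases from SARS2, the mitochondrial seryl-tRNA synthetase, and these differed by 0.15 and 0.16. MRPS18C (-0.17) lies 175 bases from HELQ (0.07), MRPL27 (0.17) lies 45 bases from EME1 (0.05), and MRPS2 (0.14) lies 96 bases from PIERCE1 (0.27). Of the 19 measured pairs, where MRPL46 and MRPS11 count from both sides, 11 had the same sign.

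Genes that work beside the ribosomal proteins were read from lists, and again 0 genes passed over all probe sets. Of 7 further symbols listed for the ribosome, 5 were found (DAP3, PTCD3, CHCHD1, GADD45GIP1 and KGD4). ICT1, listed too, is an older symbol of the member MRPL58. DAP3, PTCD3, CHCHD1 and GADD45GIP1 lay between -0.06 and 0.04. KGD4, which was listed but is not a protein of the ribosome, had 0.08. None of the 5 had an unadjusted limma p under 0.05. The 25 assembly factors had a median of 0.02, with 15 higher and 10 lower. Among them MTG1, a GTPase of large subunit assembly, had 87.2, 81.9 and 85.8 in fructose and 61.3, 72.0 and 70.6 in glucose, a difference of 0.33 (SE 0.08, adjusted p = 0.214). MPV17L2, a membrane protein that aids assembly, differed by 0.30 (adjusted p = 0.223) and NGRN by -0.21 (adjusted p = 0.281), each without overlap. At an unadjusted p under 0.05, 2 assembly factors (8.0%) were higher and 1 (4.0%) lower, below the 9.71% and 7.72% of probe sets above the median level.

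The 14 measured translation factors had a median of -0.06, with 3 higher and 11 lower. The release factors MTRF1L and MTRF1 differed by -0.23 and -0.17, and the initiation factor MTIF3 by 0.16, with adjusted p of 0.302, 0.368 and 0.348. The 17 measured genes of mitochondrial DNA maintenance and transcription had the same median of -0.06, with 4 higher and 13 lower. Here 3 genes (17.6%) were lower at an unadjusted p under 0.05, beside 5.43% of all tested probe sets and 7.72% of those above the median level. Without overlap 7 genes (41.2%) were lower, beside 8.81% and 13.6%. The terminator-family genes MTERF1 and MTERF2 differed by -0.27 and -0.32 (adjusted p = 0.231 and 0.281), and the ribonuclease PNPT1 by -0.19 (adjusted p = 0.341). TFAM, which packages mitochondrial DNA and starts its transcription, had 885, 854 and 867 in fructose and 1006, 965 and 908 in glucose, a difference of -0.14 (adjusted p = 0.432). The median over genes above the median probe set, read beside these lists, was 0.01.

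Of the 9 regulators 3 were higher and 6 lower, with 1 of each (11.1%) at an unadjusted p under 0.05, beside 9.71% and 7.72% of probe sets above the median level. NRF1 and YY1 differed by -0.0019 and 0.02, both with overlap. GABPB1 and GABPA, subunits of GABP, differed by -0.27 (adjusted p = 0.324) and -0.13 (adjusted p = 0.579), both with overlap between the sugars. GABPB1 read 139, 128 and 120 in fructose and 139, 161 and 169 in glucose. MYC, which promotes many genes of mitochondrial biogenesis, read 1153, 896 and 1161 in fructose and 778, 882 and 780 in glucose. Its difference was the largest of this list, 0.39 (SE 0.12, adjusted p = 0.261).

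**Figure D5:**
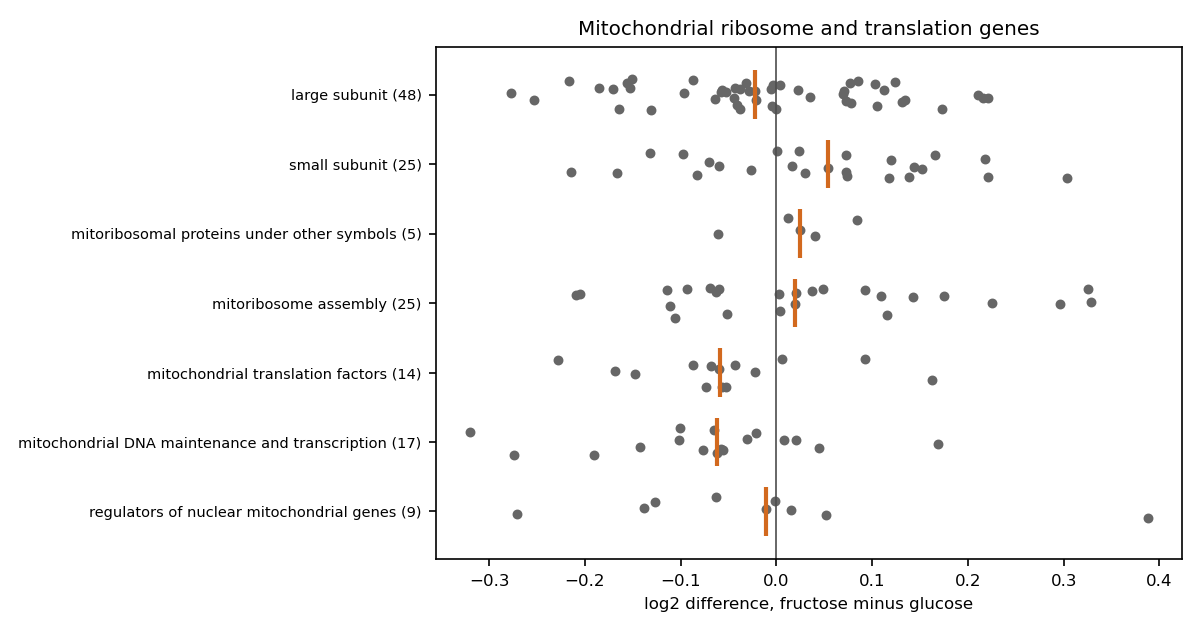
Log2 difference between fructose and glucose (horizontal axis) for each measured gene of the subunits and of 5 lists around them, with an orange bar at the median of each and the number of genes in brackets. Medians lie at -0.06 for translation factors and for mitochondrial DNA maintenance and transcription, and between -0.02 and 0.05 for the other groups.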

How the data were processed

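RNA of 6 cultures of MDA-MB-231 cells was measured on 1 array each. The authors deposited a value for each probe set on each array, an intensity from RMA, per the submitters' processing notes. That method corrects background, normalizes between arrays and summarises probes. No version of it was stated. The deposited intensities reached 9287, were read as linear, and log2 was taken. Of 32321 rows, 4091 with identifiers below those paired with genes were taken as controls and left out, and 28230 were tested with limma 3.58.1 in R 4.3.3 (fructose minus glucose, two-sided, no covariate, Benjamini-Hochberg, threshold 0.05). limma was tested on simulated data. A gene's brightest probe set with 1 symbol represented it, and all 73 members matched a current gene number. Promoter windows came from RefSeq (GRCh38.p14). No coordinates of probes are given, and no depth exists for arrays, whose number limits the precision. The median SE of a member was 0.08 (log2).

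Members and lists were chosen with earlier results of these data known. Named genes were, in each subunit, the 5 highest and 5 lowest differences, the 3 brightest and 3 dimmest, those with the 3 widest and 3 smallest residual spreads over all members, members with several probe sets, a fixed set of known proteins, members without overlap at p under 0.01 and up to 3 genes of each further list. Genes outside this rule (MRPL46, MRPS11, MRPS2, MRPL22, MRPL35, MRPL42, PTCD3, GADD45GIP1, TFAM, NRF1, YY1 and the neighbours of members) were chosen after their values were seen. Other settings tried were the replicate number as block, leaving out arrays in turn, other scalings, filters and variances, the mean of probe sets, and other subunit assignments. Added after seeing the data were the median over all members in those fits and a background of bright probe sets, also within each refit.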

Additional observations from a re-analysis of the deposited data

How the results depend on the processing

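No member passed the adjusted threshold under any of the 15 alternatives run for that count. At an unadjusted p under 0.05 the main fit gave 5 higher and 3 lower members. The numbers were 10 and 12 with an intensity trend and robust variances, 1 and 3 with arrays centred on their median, 6 and 6 with probe sets averaged per gene, 7 and 7 without moderation, 7 and 9 among probe sets above the median, and 6 and 5 after quantile normalization again. The share of lower members exceeded that of probe sets above the median in the same fit with the trend (16.4% against 11.1%), without moderation (9.59% against 8.89%), among probe sets above the median (12.3% against 9.89%) and without glucose replicate 2 (5.48% against 5.15%). The share of higher members did so with the trend (13.7% against 12.3%) and without fructose replicate 3 (9.59% against 9.13%) or glucose replicate 3 (9.59% against 7.78%). With arrays left out in turn they ran from 1 to 7 higher and from 0 to 5 lower. With the replicate number as a block they were 2 and 1, but the numbers only name the batches: deviations of same-numbered arrays correlated at -0.03, -0.02 and -0.05 over probe sets. The medians of the subunits and their gap moved by less than 1 SD between arrays under all 12 alternatives run for each. This says little about stability, since that SD comes from the same arrays. Leaving out 1 of 3 arrays in a group can hardly move a median further than it. Centring the arrays shifts both subunits alike and cannot change the gap. The filter on members above the median probe set keeps all 73 and repeats the main fit. The large subunit median was positive (0.04 and 0.01) without fructose or glucose replicate 3. The large minus small gap ranged from -0.09 to -0.03. The cause of these shifts was not tested. With 3 arrays a group, differences of the size seen here lie near the limit of the precision.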

Other observations

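Probe sets that the annotation pairs with several symbols were left out of the members, and 4 of them name a mitochondrial ribosomal protein gene. The probe set shared by MRPL51 and SPTLC1 had a log2 difference of -0.04 (95% interval -0.20 to 0.11), and the one shared by MRPS6 and SLC5A3 had 0.07 (95% interval -0.10 to 0.24). That of MRPS24 and its readthrough transcript with URGCP had 0.08 (95% interval -0.10 to 0.26), and that of MRPS28 and TPD52 had -0.07 (95% interval -0.28 to 0.14). All 4 overlapped between the sugars, and none shows which gene its signal comes from.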
